A study of Rattus norvegicus with 12 samples.

Results

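The 5 genes Ddah1, Ddah2, Nos1, Nos3 and Nos1ap, which act in the making of nitric oxide and its control, were followed across 12 rat prefrontal cortex libraries. They were found by symbol among the 22431 genes of the deposited table, and all 5 passed the filter for testing (a mean of at least 0.5 FPKM, that is, fragments adjusted for the length of the gene and the size of the library). The 12 libraries came from 12 offspring in early adolescence, 4 in each of 3 groups. Control offspring belonged to saline-treated dams. Offspring labelled PNO had postnatal exposure to oxycodone, an opioid receptor agonist, and those labelled IUO had exposure in utero. All animals carried the WT genotype. Oxycodone was given by oral gavage at 15 mg/kg, and the labels do not state which of the dosing windows belongs to which exposed group. Every group drew 4 animals from 2 dams, and no label ties an animal to its dam, so littermates were counted as independent animals and the p-values may be too low.

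Nitric oxide is made from arginine by nitric oxide synthases. Nos1 encodes the neuronal synthase and Nos3 the endothelial one, while Nos1ap encodes an adaptor protein that binds the neuronal enzyme. Methylated arginines such as asymmetric dimethylarginine, released when methylated proteins are degraded, inhibit these synthases. Ddah1 and Ddah2 encode the dimethylarginine dimethylaminohydrolases, of which DDAH1 is the established hydrolase of asymmetric dimethylarginine, whereas the activity of DDAH2 on it has been disputed. In cortex, neuronal synthase is made strongly by a sparse class of GABAergic interneurons.

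The members were chosen by earlier results of these data, in which the measured Ddah2 level was low in the PNO libraries. The PNO against control values below are therefore descriptions without a test, and so is every Ddah2 value that involves PNO. The comparison of IUO with control was tested for all 5 genes, and that of IUO with PNO for the other 4. Each of these tests reuses control or PNO libraries whose earlier results were known, so none is free of the choice of genes. Comparisons share libraries with each other, so their values stand side by side and are not independent. No gene of the 14170 tested passed an adjusted p under 0.05 with edgeR's quasi-likelihood test in any of the 3 comparisons. An unadjusted p under 0.05 was reached by 570 genes (4.02%) in IUO against control, by 953 (6.73%) in IUO against PNO and by 1564 (11%) in PNO against control, while DESeq2 on the same counts called 11, 8 and 117 genes.

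Depth and tissue content of the libraries are given first, as a background to the members. Total counts ran from 49227533 to 60672246 per library. Markers of cortical excitatory neurons (5 genes, among them Slc17a7 and Tbr1) were above 0 in every library, with a summed level of 624 to 820 FPKM in control, 575 to 739 in PNO and 483 to 721 in IUO. Striatal markers were raised in control 2, PNO 2, IUO 1 and IUO 2, at a mean of 4.47 to 6.32 log2 CPM (counts scaled to library size) against 3.21 to 3.42 in the other libraries. Olfactory bulb markers were raised in PNO 1, PNO 3, PNO 4 and IUO 3, at 3.53 to 4.36 log2 CPM against 0.869 to 1.55 elsewhere. Raised markers of either region were thus found in 4 of 4 PNO, 3 of 4 IUO and 1 of 4 control libraries. Summed levels ranged from 54.5 to 80.0 FPKM for microglial markers, 234 to 329 for astrocytes, 1630 to 4070 for oligodendrocytes, 145 to 1190 for blood, and 38.7 to 91.4 for meninges and mural cells over the 12 libraries. Eif2s3y, a Y-linked gene, was above 10 CPM in 2 control, 2 PNO and 1 IUO library, and the labels give no sex.

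Levels per gene length set the order of the members. Over all 12 libraries Ddah1 had the highest mean at 10.4 FPKM, followed by Ddah2 at 4.28, Nos1ap at 3.45, Nos3 at 3.42 and Nos1 at 0.965. Ddah1 stood above Ddah2 in 11 of 12 libraries, with IUO 4 as the exception, and Nos3 stood above Nos1 in 12 of 12. Nos1ap and Nos3 did not separate, since Nos1ap was the higher of the pair in 7 of 12 libraries. The place of Ddah2 differed by group: its FPKM exceeded that of Nos3 in 4 of 4 control and 4 of 4 IUO libraries but in 1 of 4 PNO libraries. That order restates the low PNO level that chose the gene, and nothing more is read from it. The inducible synthase gene Nos2, at a mean of 0.1 FPKM and 9 to 44 counts, was below the filter and was not tested.

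**Figure D1:**
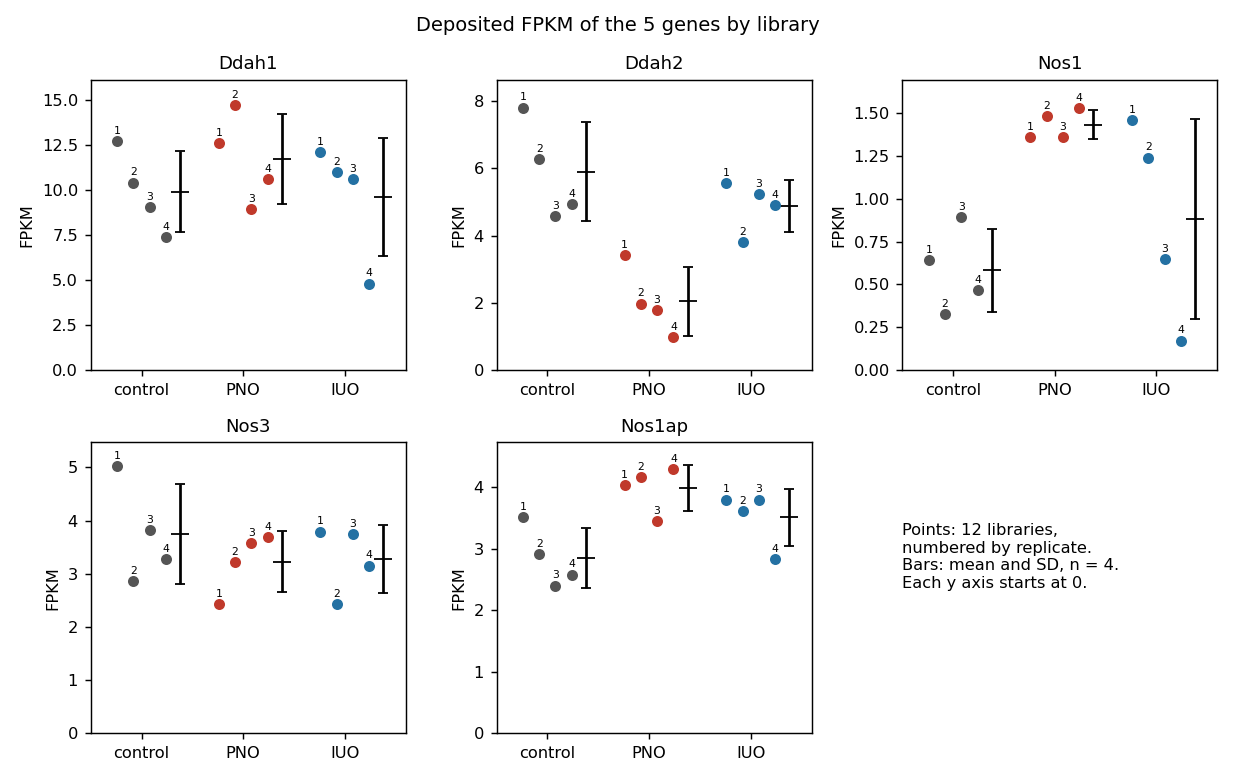
FPKM of Ddah1, Ddah2, Nos1, Nos3 and Nos1ap (y axes, each starting at 0) in the 12 libraries by group (x axes), with points numbered by replicate and bars for the mean and SD of 4 libraries. Ddah2 had a mean of 5.9 FPKM in control, 2.05 in PNO and 4.88 in IUO, and Nos1 had 0.582, 1.43 and 0.881 in the same order.

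Ddah2 was lowest in the PNO libraries. The gene (ENSRNOG00000000842, chromosome 20, positions 3761465 to 3764511, minus strand, in the coordinates of the deposited table, whose build is not given in the sources used here) is listed with 1 transcript. In the control libraries 1 to 4 it was counted at 11.2, 9.02, 6.85 and 7.43 CPM. In the PNO libraries it stood at 4.86, 2.9, 2.6 and 1.44 CPM, from 85 to 288 counts. In the IUO libraries it stood at 7.98, 5.52, 7.54 and 7.2 CPM. All 4 PNO libraries lay below every control and every IUO library, while control and IUO overlapped.

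The mean of Ddah2 was 8.63 ± 1.95 CPM in control, 2.95 ± 1.42 in PNO and 7.06 ± 1.07 in IUO (SD, n = 4 each). As a description, the log2 fold change of PNO against control was −1.55 (SE 0.297), a 2.92-fold lower level, and that of IUO against PNO was 1.26 (SE 0.296). Since the low PNO level chose the gene, both values may overstate the difference. Of all tested genes, 4.66% lay below control in all 4 PNO libraries and 1.85% lay above PNO in all 4 IUO libraries, and nothing is read from Ddah2 being among them. IUO did not differ detectably from control, with a log2 fold change of −0.289 (SE 0.289, 95% interval −0.912 to 0.333, edgeR adjusted p = 0.998). None of the 5 members separated all 4 IUO from all 4 control libraries, which 1.15% of tested genes did upwards and 1.03% downwards. The interval of Ddah2 includes both no difference and a decline of nearly 1 log2 unit.

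The Ddah2 counts are uncertain because another gene model covers the locus. In the deposited table Clic1, which encodes a chloride intracellular channel protein, spans positions 3761461 to 3773712 on the same strand and covers all 3047 bases of Ddah2. In the RefSeq annotation of the GRCr8 assembly these 2 genes are neighbours that share 0 bases. Reads from Ddah2 could therefore have been assigned to either model by the authors' quantification, and how they were divided is not given in the sources used here.

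Clic1 was counted at 47.8, 61.5, 44.0 and 53.3 CPM in control, at 48.1, 41.2, 43.3 and 40.5 in PNO, and at 46.3, 41.1, 62.6 and 59.1 in IUO. These ranges overlap, with a PNO against control log2 fold change of −0.256. With the counts of Ddah2 and Clic1 summed, an alternative added after the overlap was seen, the level was 60.3 ± 8.08 CPM in control, 46.2 ± 4.79 in PNO and 59.3 ± 10.8 in IUO (SD, n = 4 each). The log2 fold change of the sum was −0.383 (SE 0.135) for PNO against control, 0.36 (SE 0.135) for IUO against PNO and −0.0232 (SE 0.135, edgeR adjusted p = 0.998) for IUO against control. These values are smaller in size than those of Ddah2 alone, but most of the sum is Clic1. A smaller value would follow from that with or without a different division of reads, so the sum cannot decide between them. Mean Clic1 was 51.7 ± 7.6 CPM in control and 43.3 ± 3.45 in PNO (SD, n = 4 each), and a shift of reads between the models was not tested. Ddah2 made up 12.2% to 19.0% of the counts of the pair in control, 3.44% to 9.16% in PNO and 10.8% to 14.7% in IUO. The deposited counts do not separate a lower Ddah2 transcript level from a different division of reads between the models.

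**Figure D2:**
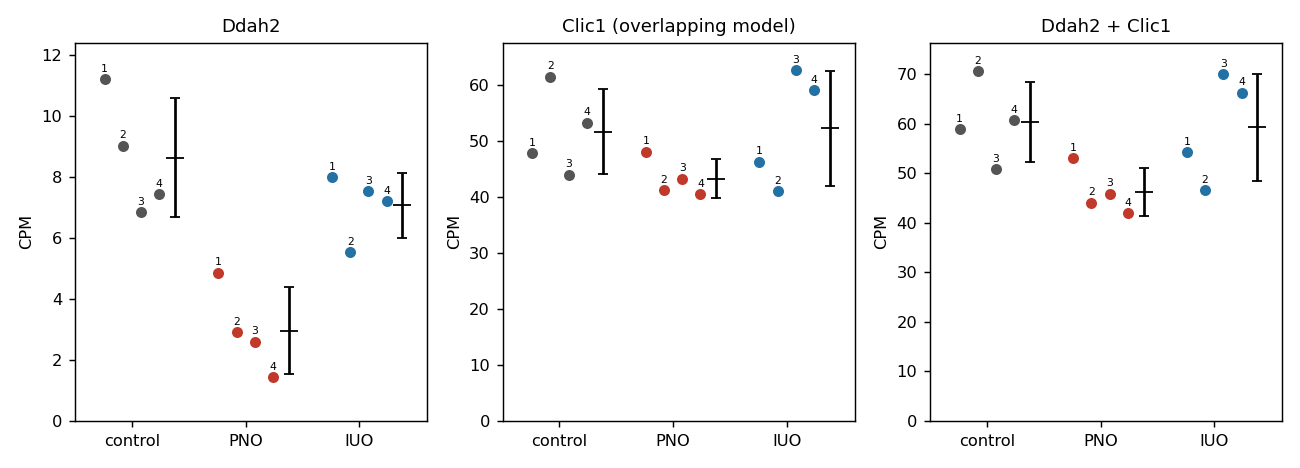
CPM (y axes, each starting at 0) of Ddah2, of the overlapping gene Clic1 and of their sum in the 12 libraries by group (x axes), with points numbered by replicate and bars for the mean and SD of 4 libraries. The PNO points of Ddah2 lie below all others, whereas those of Clic1 (40.5 to 48.1 CPM) overlap those of the other groups.

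Every PNO library had raised striatal or bulb markers, so no fit could leave out all such libraries, and tissue content and PNO cannot be told apart. The Ddah2 log2 fold change of PNO against control was −1.52 with the 4 striatum-rich libraries left out, which keeps the 3 bulb-rich PNO libraries, and −1.59 with the 4 bulb-rich ones left out, which leaves the striatum-rich PNO 2 alone in its group, assumed to vary like the others. It was −1.53 with both marker scores as covariates, −1.55 with an indicator of the Y-linked level and −1.48 after removal of a trend on gene length. Leaving out each library in turn gave −1.91 to −1.33. Of 11 other genes within 50 kb of Ddah2, 6 were tested. Of these, 0 lay below control in all 4 PNO libraries, beside 4.66% of all tested genes, and nothing about the locus is read from so few genes. Their log2 fold changes were positive for Abhd16a (0.132), Vwa7 (0.111), Vars1 (0.0824) and Ly6g6e (4.06), and negative for Clic1 and for Sapcd1 (−0.109). Ly6g6e was a gene of few counts, 0 to 15 in control, and reached 419 in IUO 3 and 95 to 222 in PNO 1, PNO 3 and PNO 4, the libraries with raised bulb markers.

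Ddah1, the other hydrolase gene (ENSRNOG00000014613, chromosome 2, positions 234667491 to 234799339, plus strand), showed no such separation. It was counted at 36.6, 30.1, 27.3 and 22.4 CPM in control, at 35.8, 43.1, 26.1 and 30.7 in PNO, and at 34.9, 32.2, 30.6 and 14.2 in IUO. The 3 groups overlapped, and IUO 4 was the lowest of all libraries. Group means were 29.1 ± 5.93, 33.9 ± 7.3 and 28.0 ± 9.39 CPM (SD, n = 4 each, control, PNO and IUO). The log2 fold change was −0.0569 (SE 0.247, 95% interval −0.59 to 0.476, edgeR adjusted p = 0.998) for IUO against control. It was −0.278 (SE 0.247, 95% interval −0.811 to 0.255, edgeR adjusted p = 0.773) for IUO against PNO, and 0.221 (SE 0.247) for PNO against control as a description. The IUO against control value turned to 0.163 without IUO 4 and to 0.0728 without control 1. With both region scores as covariates it was −0.607, and the PNO against control value turned to −0.528.

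The balance of the hydrolase genes, compared per length, follows from these levels. Ddah2 supplied 38.1%, 37.6%, 33.6% and 40.0% of the summed FPKM of Ddah1 and Ddah2 in the control libraries. Its share was 21.4%, 11.9%, 16.7% and 8.59% in PNO and 31.5%, 25.7%, 33.1% and 50.6% in IUO. The PNO shares all lay below the others, and the highest share belonged to IUO 4, where Ddah1 was low. As the low PNO level of Ddah2 chose the gene, nothing is read from that separation. The unknown division of reads between Ddah2 and Clic1 bears on these shares too. The summed FPKM of the pair was 15.8 ± 3.63 in control, 13.7 ± 3.04 in PNO and 14.5 ± 3.41 in IUO (SD, n = 4 each), differences smaller than the spread within the groups. Ddah1 exceeded Ddah2 by a ratio of 1.5 to 1.98 in control and 3.67 to 10.6 in PNO.

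**Figure D3:**
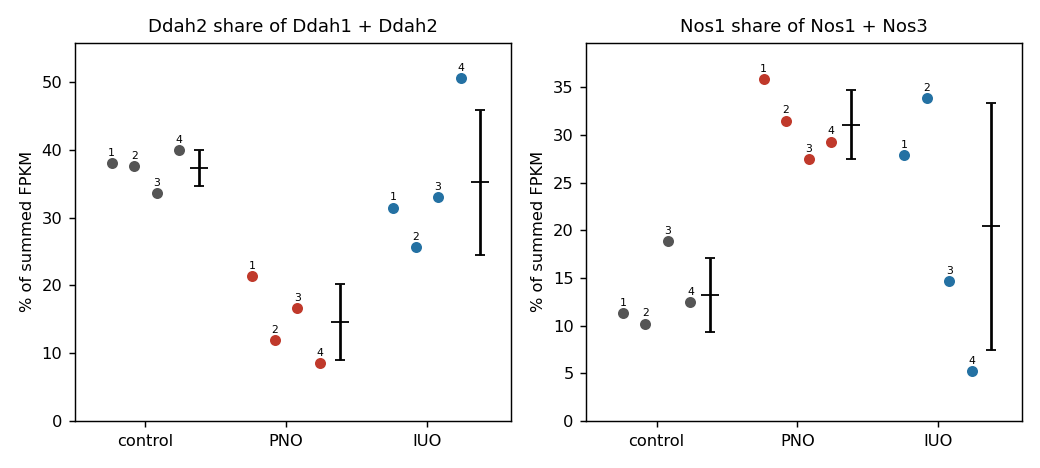
Share of Ddah2 in the summed FPKM of Ddah1 and Ddah2 (left) and of Nos1 in that of Nos1 and Nos3 (right), in percent on y axes starting at 0, by group, with points numbered by replicate and bars for the mean and SD of 4 libraries. The PNO libraries lie at 8.59% to 21.4% for Ddah2, below the others, and at 27.5% to 35.9% for Nos1, above all 4 control libraries. Both separations are descriptions, since the genes were chosen with earlier PNO results known.

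Nos1, the neuronal synthase gene (ENSRNOG00000001130, chromosome 12, positions 38626714 to 38710945, minus strand, 3 transcripts), was the member with the widest spread within a group relative to its mean. The 250 bases upstream of its RefSeq start and of that of Nos3 are shown because the 2 synthase genes differed in pattern between the libraries. The sequences are RefSeq's in the GRCr8 build, printed 5′ to 3′ on the strand of the gene, with capitals for matches to a cyclic AMP response element (TGACGTCA) or a GC box (GGGCGG), searched on both strands with a TATA box (TATAAA).
Nos1, chr12:44371838-44372087, minus strand: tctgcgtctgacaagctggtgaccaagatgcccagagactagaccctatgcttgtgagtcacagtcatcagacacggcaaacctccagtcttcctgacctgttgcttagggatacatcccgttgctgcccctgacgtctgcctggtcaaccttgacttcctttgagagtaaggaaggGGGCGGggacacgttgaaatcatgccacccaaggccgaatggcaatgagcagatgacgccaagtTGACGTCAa
Nos3, chr4:11706582-11706831, minus strand: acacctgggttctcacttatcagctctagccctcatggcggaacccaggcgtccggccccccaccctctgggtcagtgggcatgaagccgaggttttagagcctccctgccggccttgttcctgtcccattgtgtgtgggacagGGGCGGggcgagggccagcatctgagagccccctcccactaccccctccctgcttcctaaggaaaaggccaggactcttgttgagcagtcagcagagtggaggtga
The Nos1 window holds 1 cyclic AMP response element, whose first base lies 9 bases before the start, and 1 GC box. The Nos3 window holds 1 GC box, and neither window holds TATAAA. Of 33469 promoters in the table, 1.59% hold the first motif, 30.5% the GC box and 12.9% TATAAA. A match describes letters only. Nos1 has several known first exons, and the libraries do not show which start was used.

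Nos1 was counted at 3.21, 1.63, 4.63 and 2.45 CPM in control and at 6.68, 7.47, 6.86 and 7.66 CPM in PNO. In IUO it stood at 7.29, 6.23, 3.22 and 0.884 CPM, from 433 to 48 counts. All 4 PNO libraries lay above all 4 control libraries, as 5.17% of tested genes did. Nothing is read from that, because the genes were chosen with earlier results of this contrast known. The IUO libraries ran from below the lowest control to within the PNO range.

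Mean Nos1 was 2.98 ± 1.27 CPM in control, 7.17 ± 0.475 in PNO and 4.41 ± 2.91 in IUO (SD, n = 4 each). The log2 fold change was 0.562 (SE 0.474, 95% interval −0.461 to 1.59, edgeR adjusted p = 0.998) for IUO against control. It was −0.702 (SE 0.471, 95% interval −1.72 to 0.313, edgeR adjusted p = 0.726) for IUO against PNO. As a description, PNO against control gave 1.26 (SE 0.477), a 2.4-fold higher level. Single libraries moved the Nos1 values. For IUO against control the value was 0.206 without IUO 1, 0.35 without IUO 2, 0.36 without control 2, 0.856 without control 3 and 0.903 without IUO 4. For IUO against PNO it was −1.06 without IUO 1 and −0.362 without IUO 4. The tested differences did not exceed the spread between animals, and their intervals are wide enough to include a change of 1 log2 unit.

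Nos1 is given here beside the tissue content of the libraries, with which it had no single direction. In IUO the 3 libraries with raised striatal or bulb markers had 3.22 to 7.29 CPM and the library without them, IUO 4, had 0.884, whereas in control the library with raised striatal markers had 1.63 CPM and the others 2.45 to 4.63. No PNO library lacked a raised marker set. With both scores as covariates the PNO against control log2 fold change was 0.594, and that of IUO against control turned to −0.0674. Leaving out the 4 libraries rich in striatal markers gave an IUO against control value of −0.737, an IUO against PNO value of −1.78 and a PNO against control value of 1.04. Of the IUO group this fit keeps only IUO 3 (3.22 CPM) and IUO 4 (0.884 CPM), so its IUO values rest on these libraries. Markers of GABAergic neurons (Gad1, Gad2, Slc32a1 and Vip) summed to 86.4 to 106 FPKM in control, 136 to 147 in PNO and 107 to 144 in IUO. Markers of the cortical interneurons that make neuronal synthase (Sst, Npy, Tacr1 and Chodl) summed to 355 to 468 FPKM in control, 313 to 394 in PNO and 364 to 546 in IUO. The first sum was higher in every PNO library than in any control library, as 5.17% of single tested genes were, while the second overlapped. Of the 4 genes in the first sum, 3 had positive PNO against control values. Vip went the other way, at a mean of 16.7 FPKM in control and 15.0 in PNO. Gad1 had a Pearson's r of 0.76 with the bulb marker mean over the 12 libraries, so the first sum is not read as a measure of cortical interneurons. The second sum is mostly Sst (a mean of 286 FPKM) and Npy (120). Tacr1 stood at 0.815 to 1.73 FPKM in PNO and 0.59 to 0.809 in control. In CPM these groups overlapped, with 2.95 in PNO 1 and 3.12 in control 4, and PNO 2 was highest at 6.43. Chodl had a mean of 0.223 FPKM and was not tested. The part of these markers in the Nos1 values was not tested, and fewer cells of a type cannot be told apart from less RNA per cell in bulk tissue.

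A trend on gene length moved with Nos1 in most libraries, with a Pearson's r of 0.86 over the 12 libraries. Its r was 0.77 with Ddah1 and 0.77 with Nos1ap, −0.43 with Ddah2 and −0.18 with Nos3. For each library, the deviation of log2 CPM from the mean of all libraries was ranked against gene length over the 14170 genes, so that a positive Spearman value marks a library richer in long genes. The value was 0.259, 0.308, −0.0933 and 0.182 in PNO 1 to 4 and 0.254, 0.212, −0.16 and −0.351 in IUO 1 to 4, and ran from −0.281 to 0.023 in control. The lowest value and the lowest Nos1 level both belonged to IUO 4. The highest value belonged to PNO 2, at 7.47 CPM. Among the PNO libraries PNO 3 had a negative value and a Nos1 level of 6.86 CPM, so the order was not shared throughout. After the trend was removed, the Nos1 log2 fold change was 1.17 for PNO against control and 0.488 for IUO against control.

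**Figure D4:**
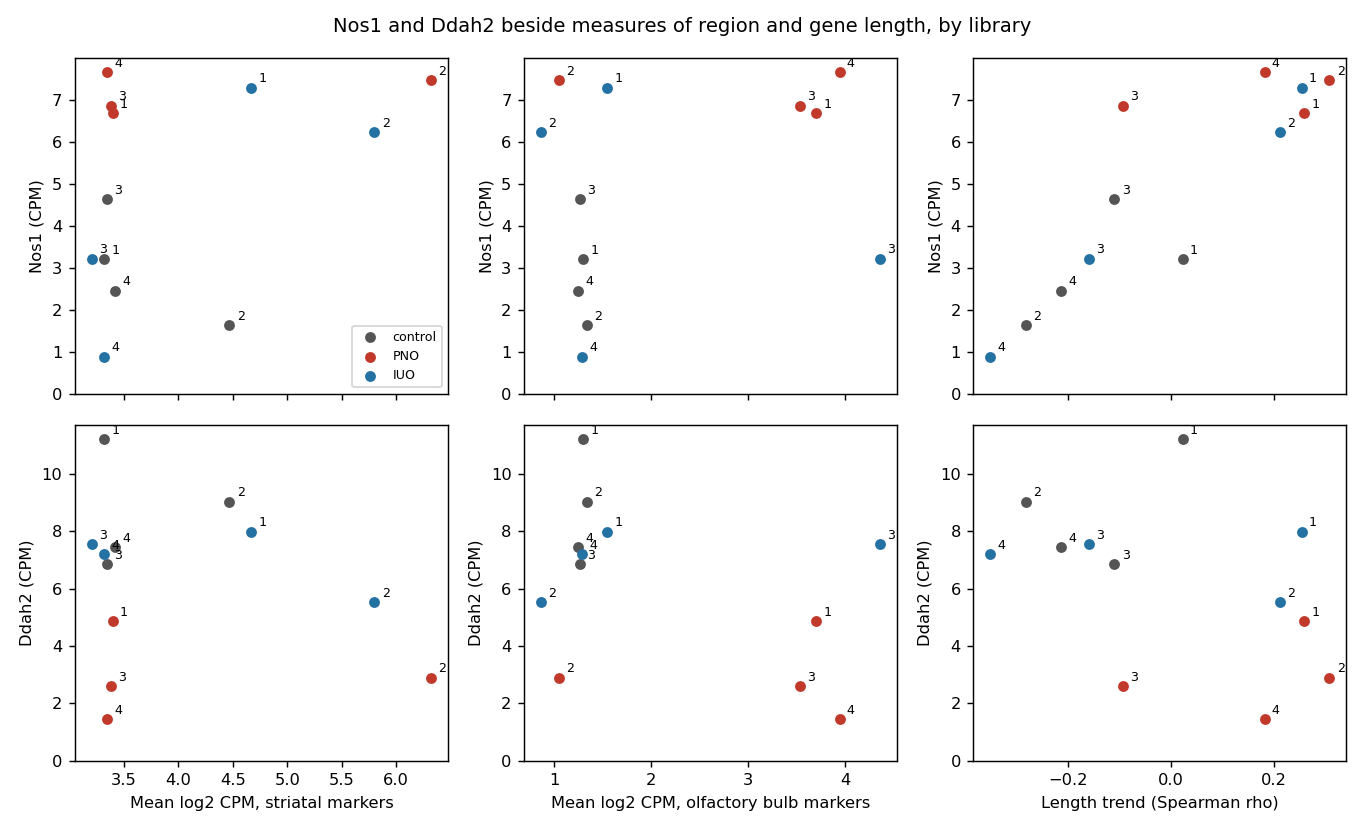
Nos1 (top) and Ddah2 (bottom) in CPM on y axes starting at 0, against the mean log2 CPM of striatal markers (left), that of olfactory bulb markers (middle) and the length trend as Spearman rho (right), with 1 point per library, coloured by group and numbered by replicate. Nos1 is lowest in IUO 4 (0.884 CPM, length trend −0.351), and the 4 PNO points of Ddah2 lie at 1.44 to 4.86 CPM. Each PNO library is raised on 1 of the 2 region measures.

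Nos3, the endothelial synthase gene (ENSRNOG00000009348, chromosome 4, positions 10793834 to 10814166, minus strand), did not separate the groups. It was counted at 21.3, 12.1, 16.9 and 14.6 CPM in control, at 10.2, 13.8, 15.4 and 15.8 in PNO, and at 16.0, 10.4, 15.9 and 13.6 in IUO. The groups overlapped, and control 1 was the highest library. Means were 16.2 ± 3.9, 13.8 ± 2.56 and 14.0 ± 2.66 CPM (SD, n = 4 each, control, PNO and IUO). The log2 fold change was −0.213 (SE 0.197, 95% interval −0.638 to 0.212, edgeR adjusted p = 0.998) for IUO against control. It was 0.022 (SE 0.197, 95% interval −0.403 to 0.447, edgeR adjusted p = 0.986) for IUO against PNO and −0.235 (SE 0.197) for PNO against control as a description. Endothelial markers (9 genes, among them Pecam1 and Cdh5) summed to 39.2 to 53.1 FPKM in control, 40.9 to 45.7 in PNO and 41.0 to 45.9 in IUO.

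Per length, Nos1 supplied 13.2% ± 3.9 of the summed FPKM of Nos1 and Nos3 in control, 31.0% ± 3.62 in PNO and 20.4% ± 12.9 in IUO (SD, n = 4 each). The range was 10.2% to 18.9% in control, 27.5% to 35.9% in PNO and 5.19% to 33.9% in IUO. Endothelial synthase transcripts were thus the larger part in every library.

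Nos1ap, the adaptor gene (ENSRNOG00000042929, chromosome 13, positions 82530577 to 82820949, minus strand, 3 transcripts), was the only member past an unadjusted p of 0.05 in a tested comparison. It was counted at 26.6, 22.0, 18.9 and 20.5 CPM in control, at 30.1, 32.0, 26.4 and 32.8 in PNO, and at 28.6, 27.6, 28.8 and 21.8 in IUO. IUO 1, 2 and 3 lay above every control library and IUO 4 lay within the control range, while the lowest PNO value fell just under the highest control value. Means were 22.0 ± 3.33 CPM in control, 30.3 ± 2.86 in PNO and 26.7 ± 3.32 in IUO (SD, n = 4 each).

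The log2 fold change of Nos1ap in IUO against control was 0.279 (SE 0.128, 95% interval 0.00366 to 0.554), with an unadjusted p of 0.0474 and an adjusted p of 0.998 by edgeR. An unadjusted p under 0.05 with a higher level was reached by 2.31% of tested genes, and the result did not pass correction. For IUO against PNO the value was −0.181 (SE 0.127, 95% interval −0.456 to 0.0933, edgeR adjusted p = 0.731). As a description, PNO against control gave 0.46 (SE 0.128), a 1.38-fold higher level. With both region scores as covariates these values were 0.102 for IUO against control and 0.186 for PNO against control. After removal of the length trend they were 0.224 and 0.33. The ratio of Nos1ap to Nos1 in FPKM was 2.54 to 2.97 in PNO, 2.7 to 8.95 in control and 2.6 to 16.4 in IUO, so it varied least among the PNO libraries.

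The wider nitric oxide pathway was read from a list of 64 genes in 10 groups, of which 59 are not members. Of those 59 genes, 53 stood in the table and 43 were tested, in 44 rows of the table. None passed an adjusted p under 0.05 in any of the 3 comparisons by edgeR, in which 0% of all tested genes did. At an unadjusted p under 0.05, 0 of 44 passed in IUO against control, and 3 were higher and 1 lower in IUO against PNO, where 3.67% and 3.06% of all tested genes were. The median log2 fold change was −0.00162 in IUO against control (0.0229 over all genes), 0.0184 in IUO against PNO (0.00363 over all genes) and 0.00212 in PNO against control (0.00683 over all genes).

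**Figure D5:**
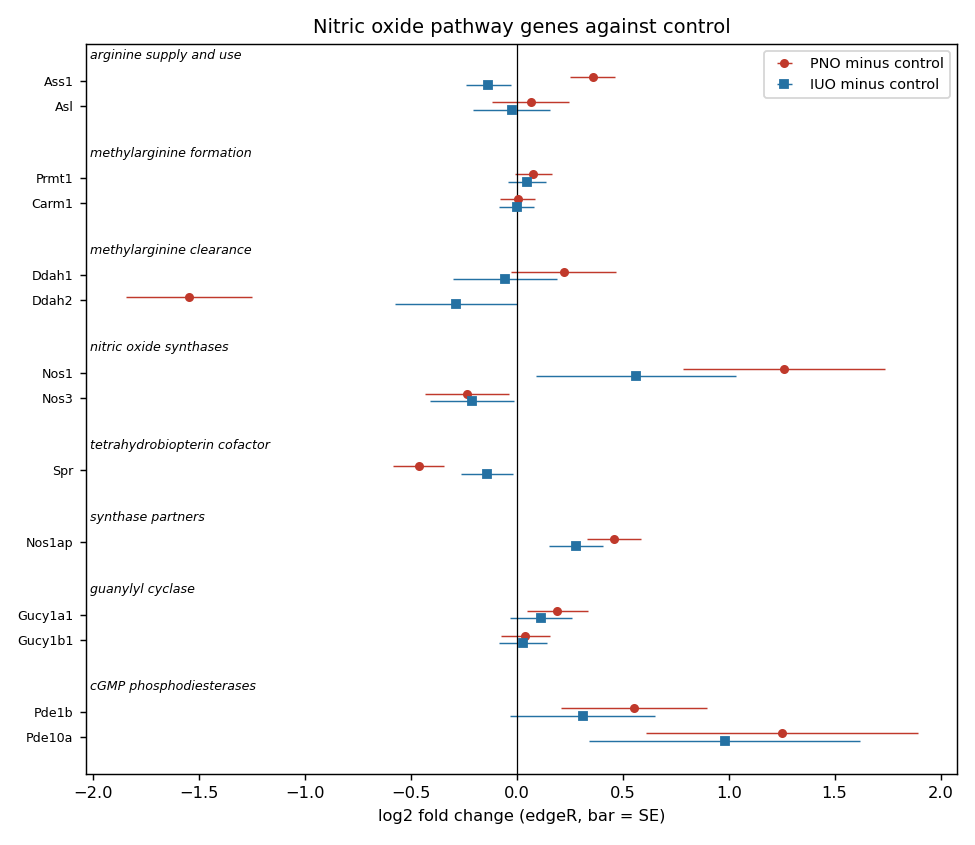
Log2 fold change from edgeR (x axis, bars for the SE) of the tested nitric oxide pathway genes named in the text (y axis, by group), for PNO minus control (circles) and IUO minus control (squares). The PNO values farthest from 0 are those of Ddah2 at −1.55, Nos1 at 1.26 and Pde10a, also a striatal marker, at 1.25. Pde10a ran from 1.11 to 8.65 FPKM over the PNO libraries.

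Ass1 was the pathway gene with an unadjusted p under 0.01. It encodes argininosuccinate synthase, which returns citrulline, the by-product of both the synthases and the hydrolases, towards arginine. Its FPKM was 5.76, 5.33, 5.52 and 5.65 in control, 6.74, 7.76, 7.57 and 6.98 in PNO, and 5.42, 5.46, 5.08 and 4.63 in IUO. Every PNO library was above every other library. Of all tested genes, 5.17% had all 4 PNO libraries above all 4 control libraries, and 1.78% had all 4 IUO libraries below all 4 PNO libraries. The IUO against PNO log2 fold change was −0.494 (SE 0.106), with an unadjusted p of 0.000429 and an adjusted p of 0.714 by edgeR, so it did not pass correction. The values against control were 0.358 for PNO and −0.136 for IUO. Asl, which completes the recycling step, gave −0.0902 for IUO against PNO.

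All 4 tested genes for tetrahydrobiopterin, the cofactor that synthases need, had positive log2 fold changes in IUO against PNO, with a median of 0.258 (50.8% of all tested genes were positive), and negative ones in PNO against control, with a median of −0.331 (51.2% of all tested genes were positive). Spr, which encodes sepiapterin reductase, stood at 18.9 ± 1.39 FPKM in control, 13.9 ± 2.06 in PNO and 17.4 ± 2.14 in IUO (SD, n = 4 each). Its IUO against PNO log2 fold change was 0.322 (edgeR adjusted p = 0.714, unadjusted p = 0.0199).

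In PNO against control, the group medians that follow were smaller in size than that of the tetrahydrobiopterin genes (−0.331). In that comparison 51.2% of all tested genes were positive. The 9 genes that methylate arginine in proteins, led by Carm1 at 32.3 FPKM and Prmt1 at 31.2 FPKM, had median log2 fold changes of −0.0298 in IUO against control and 0.00456 in PNO against control (0.00683 over all genes). The group of synthase partners, which holds Nos1ap, had 11 of 14 negative values in PNO against control (median −0.106), and 7 of 14 in IUO against control (median −0.0117). The 3 genes of S-nitrosothiol breakdown, which removes the nitric oxide group from thiols, were all negative in PNO against control (median −0.136), and 2 of 3 were in IUO against control (median −0.046). Of the nitric oxide receptor, soluble guanylyl cyclase, Gucy1b1 had a mean of 42.0 FPKM and Gucy1a1 of 10.9 FPKM, with IUO against control log2 fold changes of 0.0279 and 0.114. All 6 tested phosphodiesterase genes of cyclic GMP, the second messenger of this receptor, had positive PNO against control values (median 0.184). Those of Pde10a, a striatal marker, and Pde1b (0.552) were the largest. Both varied widely within PNO, Pde10a from 1.11 to 8.65 FPKM (SD 3.62) and Pde1b from 51.6 to 143 FPKM (SD 44.8). The methylarginine transaminase gene Agxt2 had a mean of 0.00359 FPKM and was not tested.

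The genes most like each member were read from Pearson's r of log2 CPM over the 12 libraries among the 14170 genes, as a description in which the points share 3 groups and the region differences above. Ddah2 was closest to Ufsp2 (0.93), Echdc1 (0.88), AABR07013208.1 (0.87), Nol10 (0.86) and Mtx2 (0.86). Ddah1 was closest to Lhfpl3 (0.97), Pfkfb3 (0.97) and Ubp1 (0.95). Nos1 was closest to Pip4k2b (0.98), Ccdc157 (0.98) and Tub (0.97). Nos3 was closest to Itga5 (0.92), Cd24 (0.88) and Gem (0.87), and Nos1ap to Pxdn (0.95), Abitram (0.95) and Plekha5 (0.93). No member was among the closest genes of another.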

How the data were processed

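Poly(A) RNA was sequenced from the prefrontal cortex with a strand-preserving protocol, 1 library per animal. HISAT2 and StringTie are named in the submitters' processing notes, and neither their versions nor the genome build and annotation is given in the sources used here. Per gene, the deposited table has whole-number counts and FPKM, both made by the authors, and 0 columns of sample values were left unused. Genes with a mean of at least 0.5 FPKM were kept (14170 of 22431).

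One edgeR quasi-likelihood model with the 3 groups was fitted to the deposited counts of all 12 libraries with TMM scaling. Tests were two-sided, with Benjamini-Hochberg adjustment over all tested genes and a threshold of 0.05. CPM use the TMM factors, log2 CPM a prior count of 2, and intervals are at 95%.

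The members, the pathway list of 64 genes and 11 marker lists were chosen with earlier results of these data known. Named pathway genes were those with an unadjusted p under 0.01 in IUO against control or against PNO and up to 2 more of highest FPKM per group; Spr, Asl, Pde1b, Pde10a and Agxt2 were named after their values were seen, and some genes of the lists are not reported here by name. The closest 5 genes were named for Ddah2, 3 for each other member, and neighbours within 50 kb.

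Other settings tried were DESeq2, median-of-ratios size factors, no filter, a mean of at least 2 FPKM, limma on log2(FPKM + 0.1, 0.5 or 1), the replicate number as a block, region scores as covariates, leaving out libraries with raised markers (0.5 log2 above the usual level), a fit of only the groups compared, and leaving out each library in turn. Added after seeing the data were the sum of Ddah2 and Clic1, removal of the length trend and a Y-linked covariate. The test was checked on simulated counts. Fits were made in R 4.3.3 with edgeR 4.0.16, DESeq2 1.42.0 and limma 3.58.1. Plots came from matplotlib 3.10.9 under Python 3.11.15.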

Additional observations from a re-analysis of the deposited data

Results flagged for a closer look

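Among 15 groups of 4 libraries (5 members in 3 groups), 1 held a library far from the others, about what chance gives when 1 group in 20 passes. Nos1ap stood at 21.8 CPM in IUO 4 and at 27.6 to 28.8 CPM in IUO 1, 2 and 3, and the gap took up 0.831 of the range of the group, just above Dixon's critical value for a group of 4. In IUO 4 Ddah1 (14.2 CPM) and Nos1 (0.884 CPM) were the lowest of all libraries as well, while Ddah2 (7.2 CPM) and Nos3 (13.6 CPM) lay within the range of the other IUO libraries. The length trend was also lowest in IUO 4 (−0.351). Without IUO 4, the Nos1ap log2 fold change for IUO against control was 0.365.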

How the results depend on the processing

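Ddah2 kept a negative PNO against control log2 fold change in all 26 alternatives that read it alone (−1.91 to −1.21), a positive IUO against PNO value (0.997 to 1.6) and a negative IUO against control value without a call (−0.385 to −0.138, smallest adjusted p 0.779). The sum with Clic1, most of which is Clic1, gave −0.383 and 0.36 in the first 2 comparisons. No tested member was called in any alternative. Direction turned for Ddah1 in IUO against control without control 1 (0.0728) or IUO 4 (0.163), within −0.182 to 0.163 without each library in turn. It turned for Nos1 in IUO against control with region covariates (−0.0674) and without the raised striatal libraries (−0.737), which keeps only IUO 3 and IUO 4 of that group. It turned for Nos3 in IUO against PNO with the replicate block (−0.00632), without the raised bulb libraries (−0.0503), and without PNO 1 (−0.106), IUO 1 (−0.0492) or IUO 3 (−0.0376), within −0.106 to 0.141 without each library in turn. Region covariates turned the PNO against control value of Ddah1 to −0.528 and moved that of Nos1ap to 0.186. The cause was not tested.

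Genes called in IUO against control numbered 11 with DESeq2, 4 without the raised striatal libraries, 1 without the raised bulb libraries and 0 to 1 without each library in turn (1 without control 2 or IUO 2). In IUO against PNO they numbered 8, 3, 3 and 0 to 1 (1 without PNO 3 or IUO 2). In PNO against control they numbered 117 with DESeq2, 1 with limma on log2(FPKM + 0.5) and 1 on log2(FPKM + 1), 11 in the fit of only these groups, 3 without the raised bulb libraries and 0 to 19 without each library in turn (19 without IUO 4, 1 without control 2). The other alternatives called 0.

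Replicate numbers do not mark shared dams in the labels. Same-numbered libraries of different groups deviated together with r of 0.0153 to 0.411, above 0.1 in 4 of 12 pairs. Differently numbered ones ran from −0.302 to 0.203, and 8 of 12 libraries correlated best with their own number. The main model holds no term for this, and its source is not given in the labels. With the replicate block 0 genes were called in all 3 comparisons, and Ddah2 was −1.61, 1.35 and −0.257 in PNO against control, IUO against PNO and IUO against control. Nos1 could not be tested at a mean of at least 2 FPKM. The lowest libraries held 48 counts of Nos1 and 85 of Ddah2.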
